A study of Mus musculus with 2 samples.

Results

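The genes described here are Lyve1, Retnla, Ednrb, Saa3, Mrc1, Folr2, Cd163, Cbr2 and Pf4, which are 9 of the 27998 genes in the count tables. They were listed by symbol as genes of tissue-resident macrophages, and 4 of them (Lyve1, Retnla, Ednrb and Saa3) were selected on their measured low levels in the NAM library, so that their lower values in NAM are a description of how they were chosen and support nothing by themselves. The other 5 were not selected on that contrast. The study sequenced leukocytes from TSA tumors, a mouse mammary adenocarcinoma line grown under the skin of Balb/c mice. One library came from mice left untreated (0% NAM, 0 days). The other came from mice whose drinking water held 0.5% nicotinamide, or NAM, a vitamin of the B3 group, for 10 days. In both, tumors of 3 mice were dissociated and pooled, and CD45+ cells were taken with magnetic beads. According to the methods, the suspensions that were loaded were only partly viable. With 1 library per group there is no replicate, so that no p-value was computed, and the intervals given throughout are 95% intervals that cover counting error only and not the differences between mice, tumors or preparations, which cannot be told apart from NAM.

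Transcripts were counted by unique molecular identifiers (UMIs), the tags that tell 1 captured mRNA molecule from another. There were 2922 untreated cells with 29161823 UMIs in all and a median of 9056 per cell, and 3276 NAM cells with 32090120 UMIs and a median of 9128. Cells in which C1qa, C1qb and C1qc, the complement genes typical of macrophages, together made 0.2% or more of the UMIs are called C1q-high. They numbered 2040 of the untreated cells (69.8%) and 2263 of the NAM cells (69.1%). Other myeloid cells were those below that limit with at most 1 UMI of 8 lymphoid genes and with Lyz2, Cst3, Ctss and Csf1r at 0.5% or more of the UMIs, and numbered 478 and 558. Lymphoid cells, with 2 or more lymphoid UMIs, numbered 285 and 322. The remaining 119 and 133 cells were not assigned. The C1q limit fell in a sparse range, with 24 untreated and 38 NAM cells within 0.05 percentage points below it and 19 and 25 within the same distance above. No doublet caller was run, so that doublets were not removed here, 121 untreated and 115 NAM C1q-high cells held 2 or more lymphoid UMIs, and 11 cell barcodes occurred in both libraries. Levels are given as CPM, the UMIs of a gene per 1000000 UMIs of the cell class in that library, and are compared between classes and libraries, never between genes.

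Macrophages that live in healthy tissue take up debris, iron and proteins through a set of scavenger receptors, and many of those that lie along blood vessels and in connective tissue carry LYVE1, FOLR2, CD163 and the mannose receptor MRC1. Interleukin-4 and interleukin-13, acting through the transcription factor STAT6, raise Retnla and Mrc1 in mouse macrophages. In tumors such cells stand beside macrophages that arose from recruited monocytes, which also make C1q.

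All 9 genes are protein-coding and lie apart in the genome (GRCm38, GENCODE annotation). Lyve1 is on chromosome 7 from 110850607 to 110863239 on the minus strand, Saa3 on chromosome 7 from 46711998 to 46715700 and Folr2 on chromosome 7 from 101839988 to 101857194, both also on the minus strand. Retnla is on chromosome 16 from 48842551 to 48844461 on the plus strand, and Ednrb on chromosome 14 from 103814625 to 103844402 on the minus strand. Mrc1 is on chromosome 2 from 14229392 to 14332057, Cd163 on chromosome 6 from 124304656 to 124330527 and Pf4 on chromosome 5 from 90772435 to 90773383, each on the plus strand. Cbr2 is on chromosome 11 from 120729489 to 120732114 on the minus strand.

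The promoters of members that were lower by 2-fold or more in NAM are printed to show what they share in sequence. They are RefSeq promoters of build GRCm38.p6, 250 bases before to 50 after the gene's start, given 5′ to 3′ on the gene's own strand, and RefSeq's start of a gene can differ from that of GENCODE. Capitals mark matches, on either strand, to 1 of 5 motifs: TTC and GAA with 4 bases of any kind between them (the STAT6 motif), TGANTCA (AP-1), GAGGAAG (an ETS motif), TTGCNNAA (C/EBP), and GGGA and TTTCC with 1 base between them (NF-kB). No 2 of the marked matches overlapped within these promoters. A Lyve1 promoter was not used here.
Retnla, chr16:48842359-48842658, plus strand: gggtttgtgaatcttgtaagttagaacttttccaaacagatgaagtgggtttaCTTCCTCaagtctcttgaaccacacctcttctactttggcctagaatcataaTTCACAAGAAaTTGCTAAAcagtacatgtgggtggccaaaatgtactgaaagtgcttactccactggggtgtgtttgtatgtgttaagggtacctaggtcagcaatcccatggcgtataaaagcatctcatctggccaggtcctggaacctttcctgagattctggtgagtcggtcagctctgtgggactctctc
Ednrb, chr14:103843652-103843951, minus strand: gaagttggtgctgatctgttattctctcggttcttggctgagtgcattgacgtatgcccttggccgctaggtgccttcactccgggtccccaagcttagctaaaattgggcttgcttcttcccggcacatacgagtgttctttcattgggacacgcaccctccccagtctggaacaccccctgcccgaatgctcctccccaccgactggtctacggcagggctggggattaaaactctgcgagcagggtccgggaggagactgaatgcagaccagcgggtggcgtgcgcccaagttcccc
Saa3, chr7:46715627-46715926, minus strand: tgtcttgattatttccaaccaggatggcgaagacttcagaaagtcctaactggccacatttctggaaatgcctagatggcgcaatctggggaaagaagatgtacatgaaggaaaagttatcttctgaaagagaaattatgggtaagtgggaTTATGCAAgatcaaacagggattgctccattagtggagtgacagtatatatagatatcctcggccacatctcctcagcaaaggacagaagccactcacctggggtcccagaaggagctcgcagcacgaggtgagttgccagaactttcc
Cbr2, chr11:120731972-120732271, minus strand: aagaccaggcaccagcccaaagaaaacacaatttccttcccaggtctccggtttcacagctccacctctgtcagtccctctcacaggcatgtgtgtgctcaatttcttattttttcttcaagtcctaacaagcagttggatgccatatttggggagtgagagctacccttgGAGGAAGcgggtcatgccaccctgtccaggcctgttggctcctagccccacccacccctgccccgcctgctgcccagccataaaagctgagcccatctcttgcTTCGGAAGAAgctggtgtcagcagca

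The Retnla promoter held 3 matches, to the ETS, STAT6 and C/EBP motifs, and the latter pair lay next to each other. The Saa3 promoter held 1 match, to C/EBP. The Cbr2 promoter held 2, to the ETS motif and, after the gene's start, to the STAT6 motif. In the Ednrb promoter no motif searched was found in these letters. Of the members not printed, Mrc1 held 2 ETS matches, Pf4 an ETS and a C/EBP match, Folr2 an AP-1 match in the promoter of 1 of its 2 starts, and in Cd163 no motif searched was found. Of 32851 mouse promoters of the same length, 6.95% held the STAT6 motif, 13.6% the ETS motif, 10.8% the C/EBP motif, 7.81% the AP-1 motif and 0.411% the NF-kB motif. No motif was thus common to the 4 promoters. Retnla and Cbr2 were the 2 of 8 members with a promoter in the table that held the STAT6 motif.

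In C1q-high cells all 9 members had a lower level in the NAM library than in the untreated library, and 5 of the 9 were lower by 2-fold or more. These were the 4 selected genes and Cbr2. Among all 11986 genes with 20 or more UMIs, 2.25% were lower by 2-fold or more and 0.884% were higher, and the median log2 ratio over all genes was -0.03. Of the 5 members that were not selected on the contrast, 1 was lower by 2-fold or more and their median log2 ratio was -0.61. Fewer positive cells and less RNA per cell both lower a summed level, and they are separated below as far as the counts allow.

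**Figure D1:**
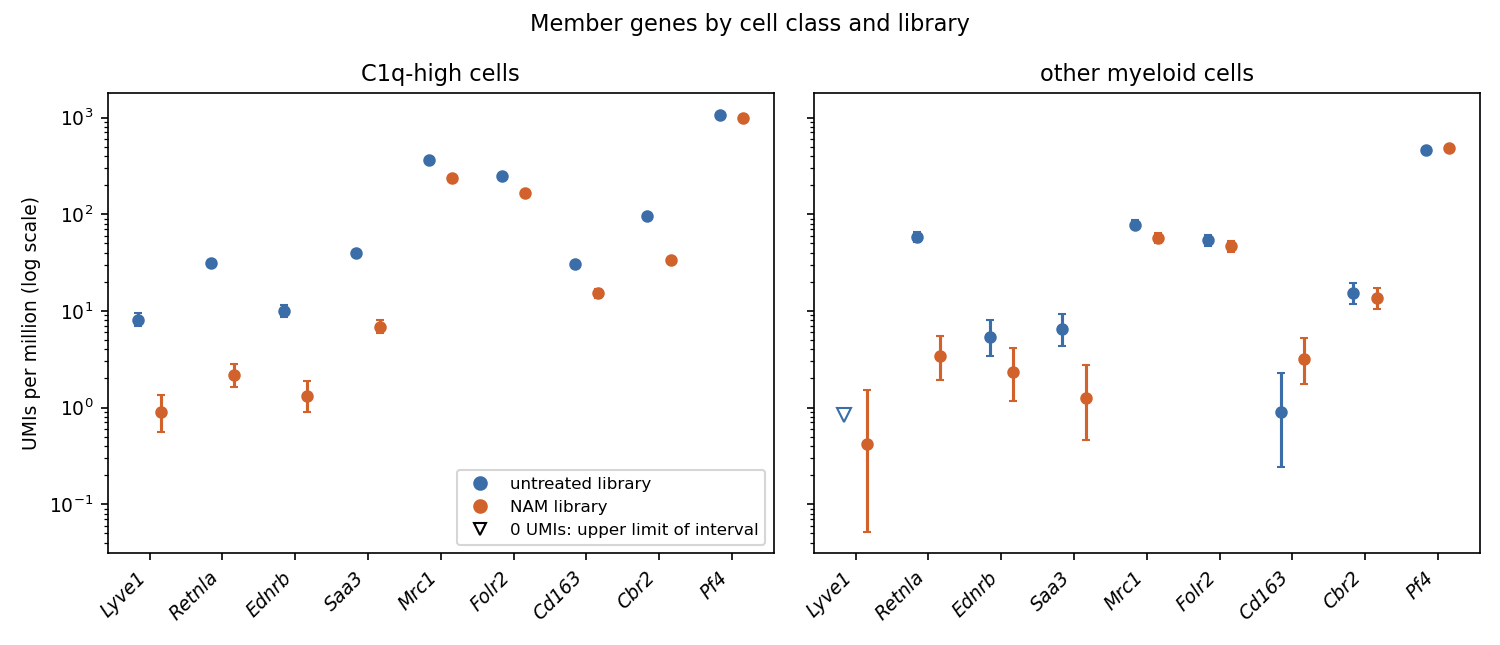
Level of the 9 members in C1q-high cells (left) and other myeloid cells (right), in CPM on a log scale, for the untreated (blue) and NAM (orange) library. Points are the summed UMIs of 1 library and bars are 95% Poisson intervals, which cover counting error only. Lyve1 went from 8.12 to 0.891 CPM in C1q-high cells, while Pf4 stayed near 1000 CPM in both libraries (1063 and 981).

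Lyve1 encodes a membrane receptor that binds hyaluronan, a sugar polymer of the matrix. C1q-high cells held 171 Lyve1 UMIs (8.12 CPM) in the untreated library and 21 (0.891 CPM) in NAM, a log2 ratio of -3.19 (interval -3.92 to -2.53). Of all Lyve1 UMIs of the library, 98.8% in the untreated and 91.3% in NAM lay in these cells. The untreated library held 0 UMIs in 478 other myeloid cells, which by a limit of 3 counts allows up to 0.628% of these cells with a UMI, and 1 UMI each in the lymphoid and unassigned cells. Set against a floor of 3 counts over the untreated other myeloid cells, Lyve1 was 12.1-fold higher in C1q-high cells. The lower end of the 95% interval of the log2 ratio was 3.28, which is less than that floor gives. In NAM the other myeloid cells held 2 UMIs, both in 1 cell, and the C1q-high over other myeloid log2 ratio of 1.08 had an interval from -0.95 to 4.22. The order of the classes in NAM was thus not detectable at this depth.

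Retnla encodes a small secreted protein, RELM-alpha, known from responses to interleukin-4. C1q-high cells held 655 UMIs (31.1 CPM) in the untreated library and 51 (2.16 CPM) in NAM, a log2 ratio of -3.84 (-4.29 to -3.43). A single untreated cell with 435 Retnla UMIs supplied 66.4% of that class's total. Retnla made 2.25% of that cell's 19298 UMIs, and its C1q share was 0.259%, just above the limit of the class. Without the highest cell of each library, an alternative chosen after the data were seen, the log2 ratio was -2.76, and with the C1q limit at 0.5%, which moves that cell out of the class, it was -2.08. Of the 53 untreated C1q-high cells with a Retnla UMI, 45 held exactly 1. Single Retnla UMIs were also found in 3 of 285 lymphoid and 7 of 119 unassigned untreated cells, and in 0 of either in NAM. Only 8 untreated and 4 NAM C1q-high cells held 2 or more, so that the amount of Retnla rested on very few cells in both libraries.

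In the untreated library other myeloid cells held 261 Retnla UMIs (58.6 CPM), and the log2 ratio of C1q-high over other myeloid cells was -0.91 (-1.12 to -0.70). With the C1q limit at 0.5% it was -3.79. The order rests on few cells, since the 5 highest held 97.3% of the UMIs in other myeloid and 89.5% in C1q-high cells, and without the 5 highest of each class, an alternative chosen after the data were seen, the ratio was 0.96. In NAM the ratio was -0.64 with an interval from -1.47 to 0.27, so that no order of these classes could be told. In NAM the other myeloid cells held 16 UMIs (3.37 CPM), and the NAM over untreated log2 ratio in that class was -4.12 (-4.95 to -3.39). Here too 1 untreated cell dominated, with 169 of the 261 UMIs, and 1 NAM cell held 14 of the 16. Without the highest cell of each library the log2 ratio in other myeloid cells was -5.30. Markers of eosinophils were read beside Retnla, and their part in it was not tested. The 7 markers summed to 1.33 and 0.976 CPM in untreated and NAM C1q-high cells and to 17.3 and 13.7 CPM in other myeloid cells. Epx and Ear6 had 0 UMIs in both classes of both libraries, and Ear1 and Prg2 had 0 in C1q-high cells. In other myeloid cells Ear2 stood at 10.5 and 10.3 CPM and Ccr3 at 6.06 and 2.74 CPM. In C1q-high cells Ccr3, with 17 and 9 UMIs, was the 1 eosinophil marker with enough UMIs and was lower by 2-fold, with an interval of the log2 ratio from -2.43 to 0.17.

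Ednrb encodes the endothelin receptor type B. It stood at 211 UMIs (10.0 CPM) in untreated and 31 (1.32 CPM) in NAM C1q-high cells, a log2 ratio of -2.93 (-3.52 to -2.38). Other myeloid cells held 24 UMIs (5.38 CPM) and 11 (2.32 CPM), a log2 ratio of -1.21 (-2.39 to -0.13). Ednrb UMIs were thus also found outside the C1q-high class. As a measure of background, untreated lymphoid cells stood at 0.556 CPM (0.0141 to 3.10), below the untreated other myeloid level (3.45 to 8.01 CPM). Of the 18 untreated other myeloid cells with an Ednrb UMI, 15 held exactly 1. In NAM the other myeloid level was not above that of lymphoid cells (2.71 CPM). Expression in NAM other myeloid cells could thus not be told from background. In the untreated library C1q-high cells were above other myeloid cells by a log2 ratio of 0.90 (0.28 to 1.57). In NAM the ratio was -0.82 with an interval from -1.85 to 0.32, and the lymphoid cells held 5 UMIs (2.71 CPM), so that no order of the classes could be told in NAM.

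Saa3 encodes an acute-phase serum amyloid A protein made by macrophages and other cells outside the liver. C1q-high cells held 843 UMIs (40.0 CPM) in the untreated library and 162 (6.87 CPM) in NAM, a log2 ratio of -2.54 (-2.79 to -2.30). Its UMIs were concentrated in few cells, with 202 and 192 UMIs in the 2 highest untreated cells and 53 in the highest NAM cell. The 5 highest cells held 71.8% of the UMIs in the untreated library and 72.8% in NAM. In other myeloid cells Saa3 had 29 UMIs (6.51 CPM) and 6 (1.27 CPM), a log2 ratio of -2.36 (-3.92 to -1.07). It was higher in C1q-high than in other myeloid cells by a log2 ratio of 2.62 (2.09 to 3.21) in the untreated library and 2.44 (1.29 to 3.91) in NAM.

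The remaining scavenging and uptake genes had smaller differences. In C1q-high cells the mannose receptor gene Mrc1 had a level of 362 CPM in the untreated library and 236 CPM in NAM (log2 ratio -0.61, -0.66 to -0.56). Folr2, the folate receptor beta, stood at 247 CPM in untreated and 164 CPM in NAM cells (log2 ratio -0.59, -0.65 to -0.53). Cd163, the receptor for haptoglobin-haemoglobin complexes, stood at 637 UMIs (30.2 CPM) and 358 UMIs (15.2 CPM), with a log2 ratio of -0.99 (-1.18 to -0.80). These 3 receptors were lower by 1.53-fold, 1.51-fold and 1.99-fold, each beyond counting error, but with 1 library per group the spread between mice is unknown. Cbr2, a carbonyl reductase, had 2000 UMIs (94.9 CPM) in the untreated library against 787 (33.4 CPM), for a log2 ratio of -1.51 (-1.63 to -1.39), and was the one member outside the selected 4 that was lower by 2-fold or more. Cd163 passed that limit too with thinned counts (-1.04), without cells with 2 or more lymphoid UMIs (-1.02) and without the 5% deepest cells (-1.09), which makes 6 of the 9 members. Pf4, which encodes the chemokine CXCL4 known from platelets and macrophages, had levels of 1063 and 981 CPM (log2 ratio -0.12, -0.14 to -0.09), near the median of all genes.

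In other myeloid cells the members were fewer and their ratios less alike. Of the 7 members with 20 or more UMIs there, 3 were lower in NAM by 2-fold or more, all of them selected genes, beside 2.46% of 9918 genes lower and 0.978% higher. Without the 5 highest cells of each library these 3 genes had fewer than 20 UMIs each, and 0 members were called. Mrc1 had a log2 ratio of -0.45 (-0.69 to -0.22). For Folr2, Cbr2 and Pf4 the intervals included 0, with log2 ratios of -0.21 (-0.48 to 0.06), -0.18 (-0.69 to 0.34) and 0.07 (-0.02 to 0.16). The interval of Cbr2 in these cells did not overlap its interval in C1q-high cells, while that of Mrc1 did. Without the 5 highest cells of each library the log2 ratio of Cbr2 in other myeloid cells was -0.99, on 55 UMIs, so that its value there rests on few cells. Cd163 ran the other way, with 4 UMIs (0.897 CPM) in untreated and 15 (3.16 CPM) in NAM cells, a log2 ratio of 1.82 (0.17 to 3.87), and lymphoid cells, which should lack it, held 2 UMIs (1.11 CPM) and 4 (2.17 CPM). The sign of the Cd163 difference changed with the C1q limit at 0.5% (log2 ratio -0.48).

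Most members marked the C1q-high class. In the untreated library 7 of the 9 were higher by 2-fold or more in C1q-high than in other myeloid cells, where 7.44% of all 11420 genes were. In NAM 6 of the 9 were, beside 7.03% of 11448 genes. The median log2 ratio over the members was 2.21 in the untreated library and 1.30 in NAM, and that over all genes was 0.02 in both. Beside Lyve1, which had 0 UMIs in untreated other myeloid cells, Cd163 had the widest gap in the untreated library, at 30.2 against 0.897 CPM (33.7-fold, on 4 UMIs in other myeloid cells). Mrc1 was 4.65-fold higher in untreated and 4.15-fold higher in NAM C1q-high cells. Folr2 was 4.59-fold and 3.52-fold higher. Cbr2 was 6.22-fold higher in the untreated and 2.47-fold higher in the NAM library, and Pf4 was 2.30-fold and 2.02-fold higher. These 4 and Cd163 kept the same order of the 2 classes in both libraries, as did Saa3, while the C1q genes themselves fixed the classes.

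RNA released from broken cells can give UMIs in cells that do not express a gene, and lymphoid cells served as the measure of it. To compare cells of unequal depth, each cell was thinned to 3000 UMIs (the median was 9676 UMIs per untreated and 9775 per NAM C1q-high cell, and 4867 and 4500 per lymphoid cell). After thinning, 65.0% of untreated C1q-high cells and 14.4% of untreated lymphoid cells held a Pf4 UMI, and in NAM the shares were 58.8% and 11.2%. For Mrc1 they were 52.5% and 3.86% in the untreated library and 42.2% and 3.73% in NAM. For Folr2 they were 38.0% and 1.75%, and 29.1% and 2.17%. The shares in C1q-high cells were thus far above those in lymphoid cells for these abundant members. For Lyve1, 34 untreated C1q-high cells (1.67%, unthinned 52 cells or 2.55%) and 0 of 285 lymphoid cells held a UMI after thinning, which by the limit of 3 counts allows up to 1.05% of lymphoid cells with a UMI at that depth. For NAM Lyve1, 9 cells (0.398%, unthinned 16 cells or 0.707%) stood beside 0 of 322 lymphoid cells, which by the same limit allows up to 0.932% with a UMI, more than the share in NAM C1q-high cells. For NAM Ednrb, 11 C1q-high cells (0.486%) stood beside 3 lymphoid cells (0.932%), so that detection in NAM was not above the background, while in the untreated library 2.06% stood beside 0.351%. For Saa3 the shares were 1.72% beside 0 of 285 cells in the untreated library and 0.884% beside 0.311% in NAM, and for Retnla 1.18% and 0.309% beside 0 cells, so that NAM Retnla, too, lay under the limit of 0.932%. Cd163 and Cbr2 were found in 1 and 3 lymphoid cells of the untreated library and in 2 and 1 of NAM, far below their shares in C1q-high cells given next.

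The number of cells with a UMI and the amount in those cells were then taken apart. For the summed thinned UMIs per cell, the log2 ratio is the sum of the log2 ratio of the share of positive cells and that of the mean UMIs per positive cell. For Lyve1 the share gave -2.07 (-3.12 to -1.01) of a total of -2.42, or 85.3%, since 34 positive cells became 9 while the mean went from 1.71 to 1.33 UMIs per positive cell. For Ednrb the share gave -2.08 (-3.04 to -1.13) of -2.60, or 80.1%, with 42 and 11 positive cells at 2.21 and 1.55 UMIs. Without thinning, the share of cells with Lyve1 gave a log2 ratio of -1.85 and the mean went from 3.29 to 1.31 UMIs per positive cell, so that the amount took a larger part than after thinning. For Ednrb the share then gave -1.98 and the mean went from 2.97 to 1.55 UMIs. As the NAM detection of both genes was near or below what lymphoid cells can show, these divisions are a description of few cells. Near 1 UMI per positive cell the mean can hardly be lower, so that a lower amount in each cell also shows as fewer positive cells, and the 2 cannot be told apart there.

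Saa3 divided the other way. Its positive cells numbered 35 (1.72%) and 20 (0.884%), and the share gave -0.96 (-1.74 to -0.17) of a total of -2.70, or 35.5%, while the mean went from 11.0 to 3.30 UMIs per positive cell. After thinning Retnla lay between, with 24 (1.18%) and 7 (0.309%) positive cells at 7.58 and 3.57 UMIs, and the share gave -1.93 (-3.14 to -0.72) of -3.01, or 64.0%. Without thinning the share of cells with Retnla gave -2.88, with means of 12.4 and 6.38 UMIs, which is a larger part than for Lyve1 or Ednrb, so that this order depends on the depth. The untreated share of Retnla was near the lymphoid limit of 1.05%, and its NAM share lay under the limit of 0.932%. The NAM share of Saa3 lay within the interval of its share in NAM lymphoid cells (0.00786% to 1.72%). These divisions, too, are a description of few cells. For both genes the mean was carried by the few cells with many UMIs. Without thinning, 8 untreated and 3 NAM cells held 20 or more Saa3 UMIs, and these 8 cells held 719 of the 843 untreated UMIs. For Retnla the counts were 4 and 0 cells, and the 4 held 575 of 655 UMIs.

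**Figure D2:**
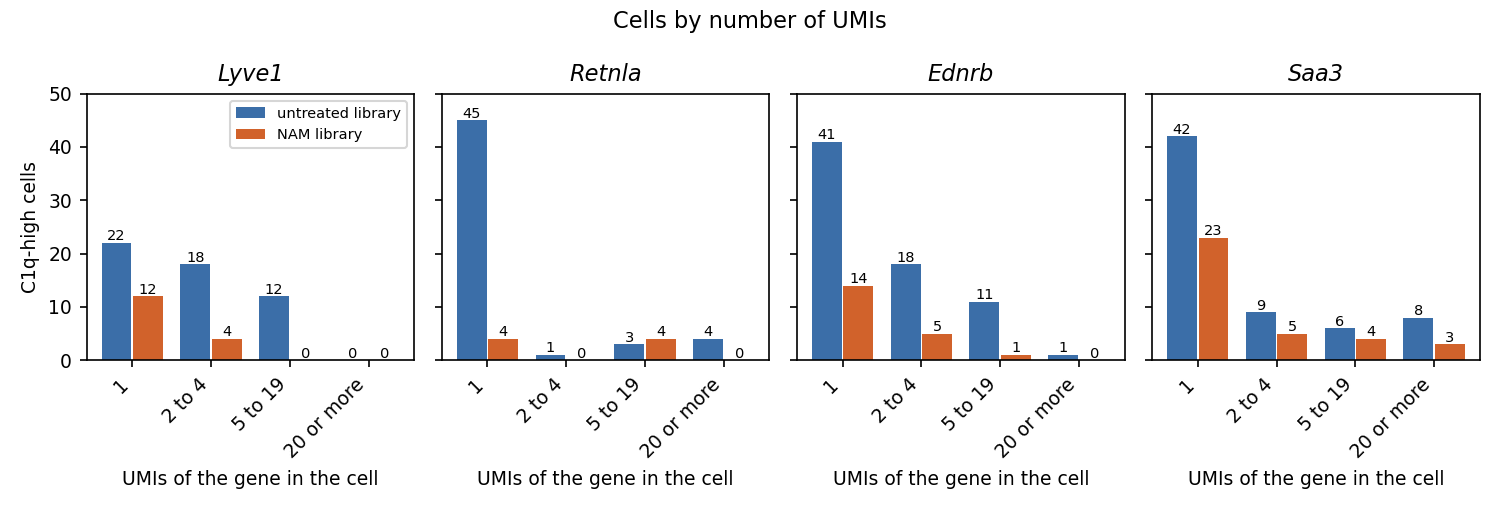
Number of C1q-high cells (vertical axis) with 1, 2 to 4, 5 to 19 or 20 or more UMIs of each selected gene (horizontal axis), without thinning, in the untreated (blue) and NAM (orange) library. Lyve1 and Ednrb spread over low counts, whereas Retnla and Saa3 had many cells with 1 UMI and a few with 20 or more, and 12 untreated but 0 NAM cells held 5 or more Lyve1 UMIs.

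Among the members that were not selected, Cbr2 had 293 (14.4%) and 149 (6.58%) positive cells, and the share gave -1.13 (-1.40 to -0.85) of -1.54, or 72.9%. Cd163 had 136 (6.67%) and 92 (4.07%) positive cells, and the share gave 68.4%. For Folr2 it gave 70.3%, and for Mrc1 48.5%, with 2.24 and 1.78 UMIs per positive cell. Pf4 differed from all of these, since its positive cells were 1327 (65.0%) and 1331 (58.8%) while the mean was 5.08 UMIs in untreated and 5.30 in NAM cells. In every other member both the share and the amount were lower in NAM.

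**Figure D3:**
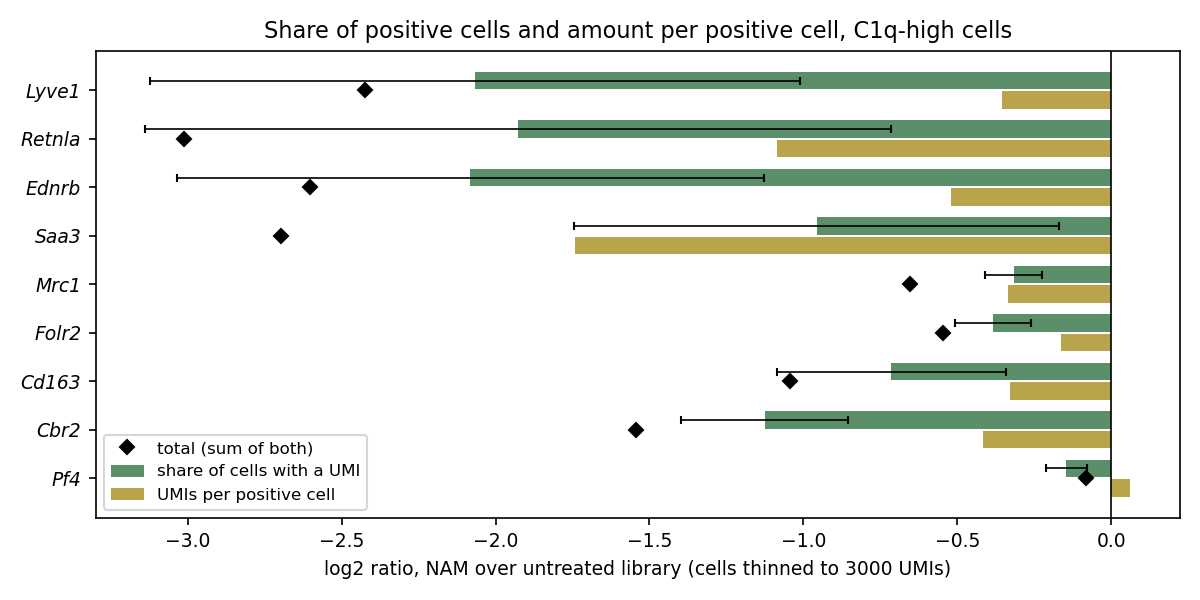
Log2 ratio, NAM over untreated, of the share of C1q-high cells with a UMI (green, with 95% intervals) and of the mean UMIs per positive cell (ochre), with their sum (black diamonds), after thinning each cell to 3000 UMIs. The share is the longer bar for Lyve1, Ednrb, Retnla, Cbr2, Cd163 and Folr2, and the amount is the longer bar for Saa3 and, by little, for Mrc1.

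Detection of the members in the same cells was counted next. After thinning, every 1 of the 36 pairs of members was detected together in more C1q-high cells than independent detection gives, in both libraries. The share of all gene pairs for which this holds was not computed, so that it cannot be called particular to the members. The median ratio of observed over expected cells was 1.91 in the untreated library and 2.63 in NAM. Cells at equal depth can still differ in RNA quality, and with few positive cells the ratios are uncertain, so that they are given as a description. Without thinning 36 and 35 pairs were above 1, and the exception was Saa3 with Mrc1 in NAM (0.953).

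The tightest pair in the untreated library was Lyve1 and Ednrb, detected together in 21 cells where 0.7 were expected (30-fold). These 21 were among 34 cells with Lyve1 and 42 with Ednrb. Ednrb and Saa3 met in 12 cells (16.7-fold) and Lyve1 and Saa3 in 8 (13.7-fold). Retnla and Lyve1 shared 2 cells where 0.4 were expected (5-fold), and Retnla and Saa3 shared 1. Retnla and Ednrb met in 7 cells (14.2-fold). In NAM the counts were small, with 5 cells holding Lyve1 and Ednrb among 9 and 11 and 2 cells holding Lyve1 and Retnla, and the ratios of 114 and 71.8 rest on expected counts far under 1.

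**Figure D4:**
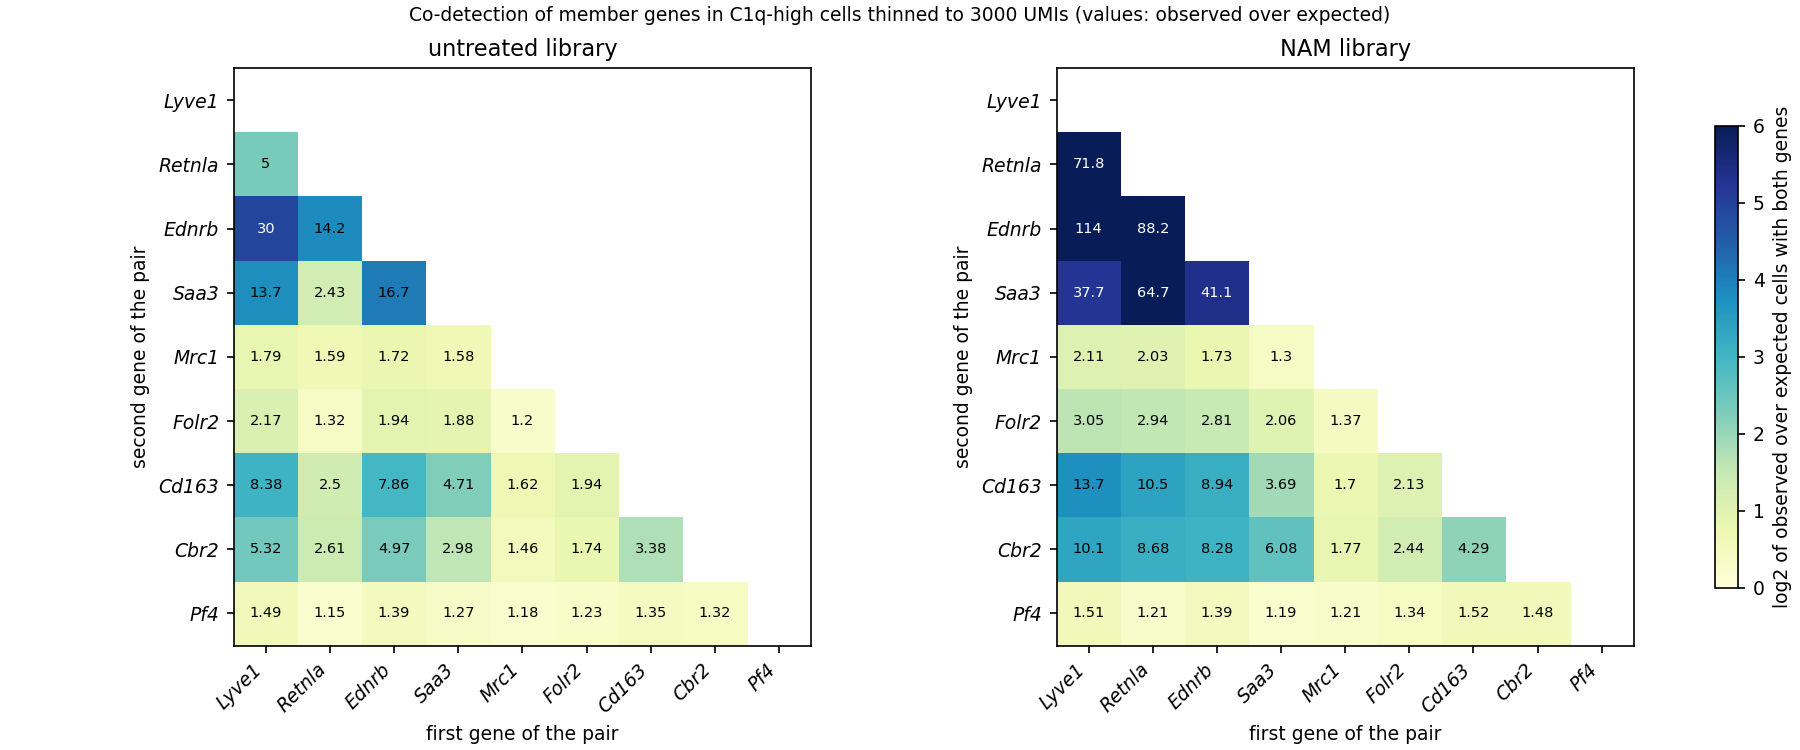
Observed over expected number of C1q-high cells with both genes of a pair, printed in each square and coloured on a log2 scale, for the untreated (left) and NAM (right) library after thinning to 3000 UMIs per cell. Expected counts assume that the 2 genes are detected independently. In the untreated library Lyve1 and Ednrb stand at 30, and the pairs with Pf4 lie between 1.15 and 1.49.

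Cd163 and Cbr2 were each found in most untreated cells with Lyve1 or Ednrb, but in fewer of those with Retnla or Saa3. Of the 34 untreated cells with Lyve1, 26 held Cbr2 (5.32-fold over expectation), 19 held Cd163 (8.38-fold), 28 held Folr2 (2.17-fold) and 32 held Mrc1 (1.79-fold). Of the 42 cells with Ednrb, 22 held Cd163 (7.86-fold) and 30 held Cbr2 (4.97-fold). Of the 24 untreated cells with Retnla, 4 held Cd163 (2.50-fold), 9 held Cbr2 (2.61-fold) and 12 held Folr2 (1.32-fold). Of the 35 untreated cells with Saa3, 11 held Cd163 (4.71-fold) and 15 held Cbr2 (2.98-fold). Of the 20 NAM cells with Saa3, 3 held Cd163 and 8 held Cbr2. In NAM, 3 of 7 cells with Retnla held Cd163 (10.5-fold) and 6 held Folr2 (2.94-fold), beside 5 and 8 of 9 cells with Lyve1 (13.7-fold and 3.05-fold). Without thinning, 174 untreated C1q-high cells (8.53%) and 63 NAM cells (2.78%) held a UMI of at least 1 of the 4 selected genes. At least 2 of the 4 were found in 52 untreated and 9 NAM cells.

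Cells that held both Cd163 and Cbr2 were then examined, a definition chosen after the data were seen that uses none of the selected genes, with a median of 9894 UMIs per untreated and 10719 per NAM cell. They numbered 139 in the untreated library (6.81% of C1q-high cells, 5.76% to 8.0%) and 85 in NAM (3.76%, 3.01% to 4.62%). Within them Lyve1 stood at 99 UMIs (70.1 CPM) in untreated and 12 (12.7 CPM) in NAM cells, a log2 ratio of -2.46 (-3.46 to -1.59). Ednrb stood at 142 and 9 UMIs (-3.40, -4.56 to -2.43), Saa3 at 311 and 18 (-3.53, -4.30 to -2.85) and Retnla at 120 and 18 (-2.16, -2.96 to -1.43). Since Cd163 and Cbr2 themselves differed between the libraries and the 4 genes were selected on this contrast, these values are a description only. The defining genes were also lower in NAM within these cells, Cd163 at -0.45 (-0.69 to -0.22) and Cbr2 at -0.82 (-1.02 to -0.62), so that the cells were not alike in the libraries. In the same cells the log2 ratio of Mrc1 was -0.59 (-0.73 to -0.46), that of Folr2 was -0.24 (-0.40 to -0.08) and that of Pf4 was 0.25 (0.17 to 0.33).

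The ratios of the other members were also computed without every C1q-high cell that held a UMI of a selected gene, an alternative chosen after the data were seen. It removes 174 untreated and 63 NAM cells, a number fixed by the genes' own selection. All 5 ratios were less negative than in all C1q-high cells and lay outside the intervals there, that of Folr2 only just. The remaining cells are part of the same class, so that those intervals do not measure the change. Cbr2 then had a log2 ratio of -1.26 and Cd163 of -0.68. Folr2 had -0.53, Mrc1 -0.47 and Pf4 -0.07.

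Cells with a Lyve1 UMI had a gene profile of their own in the untreated library. Since Lyve1-positive and Lyve1-negative cells were drawn from 1 library and set apart by the gene itself, the contrast is given without a test. Among 5356 genes with 100 or more thinned UMIs, 12.2% were higher by 2-fold or more in the 34 Lyve1-positive cells. Of a list of 30 resident macrophage genes, 22 had 100 or more UMIs and 17 of these were higher by 2-fold or more, with a median log2 ratio of 1.62 beside 0.08 over all genes. Ltc4s, the leukotriene C4 synthase, stood at 461 against 20.1 CPM. Fcna, a ficolin of the lectin complement pathway, stood at 608 against 43.7 CPM, and F13a1, a coagulation factor subunit, at 1196 against 106 CPM. Gas6, a ligand of the TAM receptors that take part in the uptake of dying cells, stood at 657 against 119 CPM.

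Outside that list, the secreted protein gene Wfdc17 stood at 22422 against 1425 CPM and the haem-degrading enzyme gene Hmox1 at 1833 against 260.2 CPM. The monocyte chemoattractant Ccl8, which is on the list, stood at 25098 against 5704 CPM. In the opposite direction, the MHC class II gene H2-Aa stood at 1069 against 7061 CPM and Cd74, the MHC class II invariant chain, at 3618 against 21027 CPM. Both genes were chosen after their values were seen. Of the pan-macrophage genes, Csf1r stood at 676 against 563 CPM, Adgre1 at 333 against 342 CPM and C1qa at 6010 against 6837 CPM. The widest gaps were those of Ms4a7, at 922 against 1812 CPM (log2 ratio -0.97), and Fcgr1, at 186 against 331 CPM (-0.79). None of 11 macrophage markers with enough UMIs differed by 2-fold. The Lyve1-positive cells had a median of 7936 UMIs against 9712.5 in the others, and a median C1q share of 1.22% against 1.74%.

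**Figure D5:**
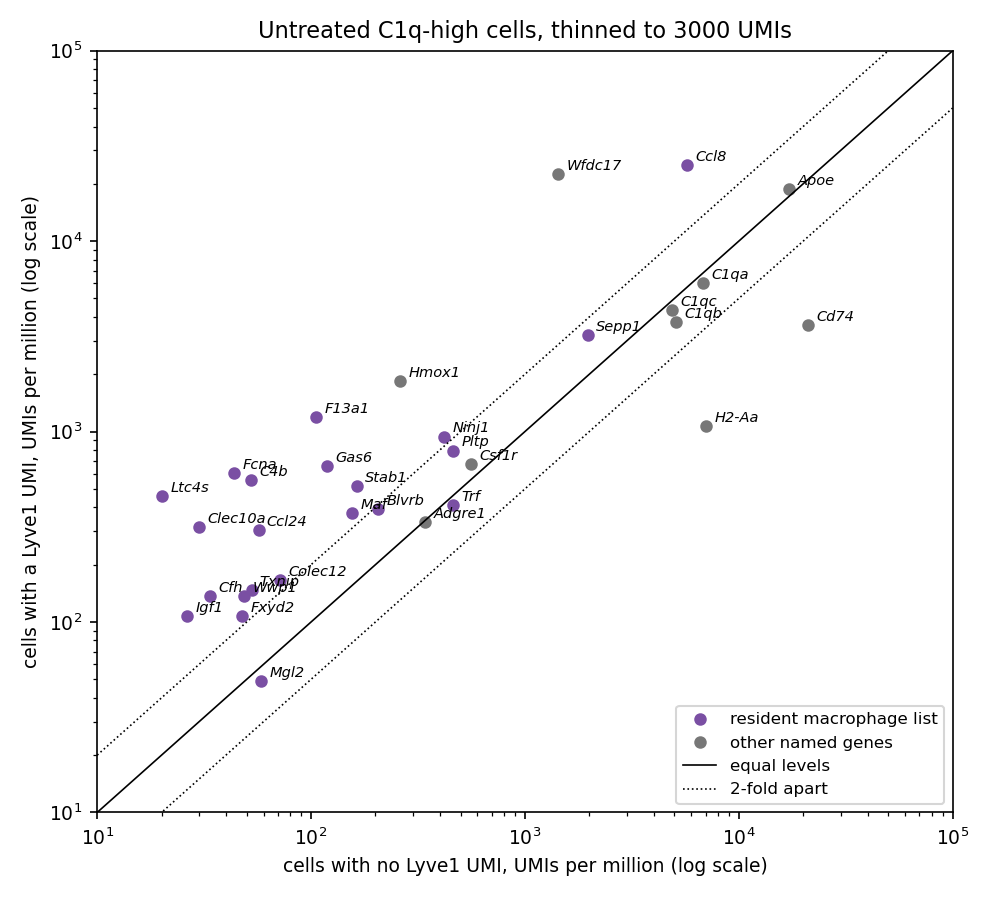
Levels in untreated C1q-high cells with a Lyve1 UMI (vertical axis, 34 cells) against those without (horizontal axis), in CPM after thinning to 3000 UMIs per cell, both axes on a log scale. Purple points are genes of the resident macrophage list, and grey points are other named genes. Most resident genes lie above the upper dotted line (2-fold higher), the pan-macrophage genes lie between the dotted lines, and H2-Aa and Cd74 lie below the lower dotted line.

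LYVE1 also marks lymphatic vessels, so that markers of lymphatic endothelium were read beside it. Of the 6 other markers with a row, Prox1, Reln and Mmrn1 had 0 UMIs in C1q-high cells of both libraries, and Flt4 had 0 in untreated and 6 in NAM. Pdpn, which macrophages also express, stood at 84.2 and 59.4 CPM, and Thy1 at 4.46 and 4.07 CPM. The summed level of the list was 88.7 and 63.7 CPM. In the 34 untreated and 9 NAM cells with a Lyve1 UMI after thinning, Prox1, Reln, Mmrn1 and Flt4 had 0 UMIs and Pdpn had 6 and 0. For Pf4, the platelet genes Gp1ba and Tubb1 had 0 UMIs in C1q-high cells of both libraries, Ppbp stood at 4.65 and 4.88 CPM, and the 8 markers summed to 5.22 and 5.47 CPM.

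For 6 members, genes that are no members were ranked by the lower of the 2 libraries' ratios of level between cells with and without the member. The 5 highest are given. Among the members left out, Ednrb had a lower log2 ratio of 6.74 for Lyve1, above the 6.71 of Cd209d, and Saa3 had 4.54, above the 4.53 of Ltc4s. Only genes with 30 or more UMIs in the cells with the member were ranked, so that a gene of low count enters only where it is high in those cells, and the ranks are a description. For Lyve1 these were Cd209d, Cd209g, Cd209f, Ltc4s and Wfdc17. The first stood at 333 against 3.16 CPM in the untreated and 667 against 0.887 CPM in the NAM library, on 34 and 18 UMIs in the cells with Lyve1. After thinning, the 3 cells highest in Cd209d held 24 of its 53 untreated and 18 of its 24 NAM UMIs in C1q-high cells. For Ednrb they were Cd209d, Lrg1, Cd209g, Cd209f and Ltc4s, 4 of which were also among those of Lyve1. The Cd209 genes encode C-type lectins and are close relatives of each other, and reads could be divided among them uncertainly. For Saa3 the 5 were Cd209f, Cd209g, Wfdc17, Clec10a and Fcna, for Folr2 they were Cd209g, Cd209d, Lrg1, Cd209f and Bmp2, and for Cd163 they were Lrg1, Cd209f, Cd209g, Cd209d and Ltc4s.

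For Retnla the 5 were Ccl24, Ccl6, C4b, Wfdc17 and Egr1. Ccl24, an eosinophil-attracting chemokine, stood at 292 against 58.2 CPM in the untreated library, where 24 cells held Retnla, and at 571 against 42.4 CPM in NAM, where 7 did. Ccl6 stood at 4792 against 943 CPM and at 9476 against 588 CPM. The ratios for Retnla were lower than those for Lyve1 and Ednrb, at 5.12-fold in the untreated library for Ccl24 and 104-fold for Cd209d in cells with Lyve1.

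The other genes of the resident macrophage list pointed mostly downward in NAM. In C1q-high cells 29 of its 30 genes had 20 or more UMIs. Of these, 26 had a ratio below 0, 6 were lower by 2-fold or more and 0 were higher by 2-fold or more. Among all genes 2.25% were lower and 0.884% higher by 2-fold or more, and the share below 0 was not counted. The median log2 ratio was -0.44 beside -0.03 over all genes. The lowest were Slc40a1, the iron exporter ferroportin (8.17 and 2.33 CPM, log2 ratio -1.81, -2.27 to -1.36), Vsig4, a complement receptor (4.46 and 1.36 CPM, -1.72, -2.34 to -1.12) and Cd209b (28 and 10 UMIs, -1.65, -2.85 to -0.56). The others past 2-fold were Igf1 (-1.51), Ltc4s (-1.19) and Cd209d (-1.07). At the upper end stood Cd209g (9.49 and 16.2 CPM, 0.77, 0.52 to 1.03), Cd209f (0.07) and the biliverdin reductase gene Blvrb (0.01). Several of these values rest on few cells. After thinning, Vsig4 was found in 9 untreated and 3 NAM cells, Cd209b in 7 and 3, and Cd209d in 18 and 8. The log2 ratio of Cd209b was then -0.998, within 2-fold, and 18 of the 24 Cd209d UMIs in NAM lay in 3 cells. Slc40a1 was found in 36 and 11 cells, and Cd209g in 26 and 12. Cd209g had 78 UMIs in each library (12.7 and 11.5 CPM, log2 ratio -0.15). Of these, 35 lay in the 3 highest untreated cells and 63 in the 3 highest NAM cells.

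Genes of the members' pathways were counted in the same way in C1q-high cells, where 2.25% of all genes were lower and 0.884% higher by 2-fold or more. In lists this short such shares give few or no genes, so that the counts are a description. Of the interleukin-4 and STAT6 list, 0 of 18 genes with enough UMIs were higher or lower by 2-fold, and the median log2 ratio was -0.28. Ccl17 (37 and 21 UMIs, -0.98), Clec10a (-0.90) and Irf4 (-0.68) stood lowest, and Socs1 (0.88) and Pdcd1lg2 (0.41) highest. Il4ra, the receptor subunit, stood at 101 and 79.3 CPM and Stat6 at 40.3 and 40.0 CPM, while Il4 and Il13 had at most 3 UMIs in either library. Of the 18 genes, 12 had a ratio below 0.

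Around Lyve1, the list of hyaluronan and scavenger receptor genes had 1 of 11 genes lower by 2-fold or more. This was Cd5l, a macrophage scavenger protein (17 and 3 UMIs, log2 ratio -2.66 with an interval from -5.08 to -0.87). After thinning it was found in 5 untreated and 0 NAM cells. Cd44, the other main hyaluronan receptor, stood at 162 and 151 CPM (-0.10), Stab1 at -0.44 and the hyaluronidase gene Hyal1 at 0.52. Around Ednrb, 3 of 8 endothelin genes had enough UMIs and none differed by 2-fold. The ligand gene Edn1 stood at 74 and 51 UMIs (-0.70, -1.24 to -0.16), and Ednra, the other receptor, had 0 UMIs in both libraries.

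Around Saa3, 1 of 7 acute-phase genes was lower by 2-fold or more, namely Il6 (39 and 20 UMIs, -1.13, -1.98 to -0.31), while Il1b stood at 0.02 and the transcription factor gene Cebpb at 0.06. The related genes Saa1 and Saa2 had 1 and 0 UMIs in the untreated library and 0 in NAM. Around Folr2, 0 of 7 folate genes differed by 2-fold, from Slc46a1 (-0.22) to Fpgs (0.16). Around Cd163, 0 of 10 glucocorticoid and haemoglobin genes did, with Hmox1 at -0.31, the glucocorticoid receptor gene Nr3c1 at -0.14 and its target Tsc22d3 at 0.23.

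Around Pf4, 2 of 10 chemokine and platelet granule genes were lower by 2-fold or more. These were the neutrophil attractants Cxcl3 (19.9 and 7.43 CPM, -1.42) and Cxcl1 (746 and 339 CPM, -1.14), and the median of the list was 0.09. Of the macrophage markers, 0 of 12 differed by 2-fold, and their summed level was 37712 and 38261 CPM, which includes the 3 C1q genes that set the class. Adgre1 stood at 335 and 259 CPM (-0.37, -0.42 to -0.32) and Csf1r at 551 and 472 CPM (-0.22, -0.26 to -0.19). Markers of T cells (0 of 8), monocytes (0 of 8), fibroblasts (0 of 5) and tumor epithelium (0 of 3) did not differ by 2-fold either, while 2 of 7 dendritic (Cd209a and Itgae), 1 of 3 NK cell and 1 of 1 eosinophil markers with enough UMIs were lower and 1 of 5 neutrophil, mast cell and blood endothelial markers each were higher. Of the 7 dendritic markers 3 had a ratio below 0, with a median log2 ratio of 0.52 and a summed level of 18.8 and 25.1 CPM. The part of these cells in the members' values was not tested.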

How the data were processed

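Per the labels and the study's methods, single-cell 3′ libraries were aligned to mm10 and UMIs counted with Cell Ranger. The authors deposited raw counts, whole UMIs per gene and cell, and every deposited cell has 3001 UMIs or more. The UMIs of each cell class were summed per library (Python 3.11.15, NumPy 2.4.6, SciPy 1.17.1). Itgam, planned for the other myeloid class, was not used here. Ratios have exact conditional binomial intervals, levels Poisson, shares Clopper-Pearson and share ratios Katz log intervals, all at 95%. Counts of lower or higher genes took 2-fold or more with a pseudocount of 0.5 UMIs and 20 or more UMIs in both groups together. Thinning drew 3000 UMIs per cell without replacement (random seed 1). Scripts were tested on simulated data. The members and lists were chosen with earlier results of these data known. Genes named from a list have its 3 highest and 3 lowest ratios, except where a gene is not reported here; further ones were chosen after their values were seen, as were Wfdc17, Hmox1, H2-Aa and Cd74 for the Lyve1-positive cells. Partner genes were no members and had 30 or more UMIs in cells with the member. Alternatives were C1q limits of 0.1% and 0.5%, a myeloid limit of 1%, another scaling, a pseudocount of 1, another seed, thinned counts, gene filters, and leaving out the 1 or 5 highest cells, the 5% deepest cells, cells with lymphoid UMIs or cells with a selected gene; the other seed, the 1 highest cell, the selected gene, the highest cells of each class, thinned list genes and adding unassigned cells to the other myeloid class were chosen after the data were seen.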

Additional observations from a re-analysis of the deposited data

Results flagged for a closer look

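For 2 members the log2 ratio of NAM over untreated had opposite signs in the 2 myeloid classes. Cd163 stood at -0.99 in C1q-high cells and at 1.82 in other myeloid cells, where it rested on 4 and 15 UMIs. With the C1q limit at 0.5% Cd163 stood at -0.48 in other myeloid cells, so that its signs were then the same. Pf4 stood at -0.12 in C1q-high cells and at 0.0696 in other myeloid cells, where its interval included 0. With the C1q limit at 0.1% Pf4 stood at -0.12 in other myeloid cells, so that the signs were then the same. Neither difference between the classes was tested, since each class held 1 library per group.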

How the results depend on the processing

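Precision is limited by 1 library per group and by few positive cells, 34 untreated and 9 NAM cells for Lyve1 after thinning. In C1q-high cells 86 alternative ratios of the members were computed, of which 72 lay within the interval of the reported value, 14 moved and 0 changed sign. The ratio of Retnla moved most, from -4.47 without the 5 highest cells of each library to -2.08 with the C1q limit at 0.5%, and it was -2.23 without the 5% deepest cells. The cause was not tested. In other myeloid cells 61 of 72 lay within the interval, and 1 ratio whose interval excluded 0 changed sign, Cd163 with the C1q limit at 0.5% (-0.48, from cells that this limit adds to the class). Of the ratios whose interval included 0, Cbr2 (0.019) and Pf4 (-0.12) changed sign with the C1q limit at 0.1%. Lyve1, which rests on 0 and 2 UMIs, had no UMI left with that limit or without the highest cells, so that no sign could be read. Between the classes, the untreated Retnla ratio changed sign to 0.96 without the 5 highest cells of each class. In other myeloid cells 0 members were called lower by 2-fold or more without the 5 highest cells of each library, against 3 with them. Only 4 members then had 20 or more UMIs, and Retnla, Ednrb and Saa3 were not among them. The log2 ratio of Saa3 was then -4.34, on fewer than 20 UMIs, and the highest value of Retnla over 9 settings was -3.77. In C1q-high cells, 10.5% of all genes were lower and 8.05% higher by 2-fold or more with no filter on UMIs, and 1.01% and 0.173% with 100 or more UMIs. In other myeloid cells the shares were 11.2% and 9.11% with no filter, and 0.969% and 0.281% with 100 or more UMIs. No paired analysis was possible because each group has 1 library.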
